A study of Mus musculus with 19 samples.

Results

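The miR-9 and miR-124 microRNAs (miRNAs) of the hippocampal CA1 region were measured as 4 mature arms, mmu-miR-9-5p, mmu-miR-9-3p, mmu-miR-124-3p and mmu-miR-124-5p, written below without the mouse prefix. They were taken by name, as every entry of the count files that begins with mmu-miR-9- or mmu-miR-124-, and they are 4 of 1148 listed miRNA names. All 4 passed the filter on low counts, which kept 509 miRNAs for testing. The tissue was microdissected from WT C57B/6JRj mice, and 19 small RNA libraries fall into 3 groups. In OldSAHA (6 libraries), mice aged 20 months drank 0.67 g SAHA and 18 g cyclodextrin per L of water for 4 weeks. In OldVeh (5 libraries), mice aged 20 months drank 18 g cyclodextrin per L of water for 4 weeks. In YoungVeh (8 libraries), mice aged 3 months drank the same cyclodextrin vehicle, for a time that the labels do not give. SAHA (suberoylanilide hydroxamic acid, vorinostat) inhibits histone deacetylases, and cyclodextrin is the carrier that keeps it in solution. The comparisons ask how these miRNAs differ with age and with oral SAHA in aged mice. Sex and sequencing batch are not among the labels, which also do not say that each library is a separate mouse, so p-values measure the spread between these libraries.

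A miRNA gene is transcribed as a hairpin, and Dicer cuts from it a duplex of a 5p and a 3p arm. Usually one arm, the guide, is kept in an Argonaute protein and pairs through its seed with target mRNAs, while the other is mostly degraded. miR-9 and miR-124 are known for their part in neuronal identity: the repressor REST silences their genes outside neurons, and they in turn restrain REST, its cofactor CoREST and other factors of non-neuronal and progenitor cells. miR-124-3p is among the most neuron-specific miRNAs of the mammalian brain and represses the splicing regulator Ptbp1. miR-9-5p acts in neural progenitors and in neurons, and miR-9-3p, once written miR-9*, is unusual in that the less abundant arm also has known targets, including CoREST and a progenitor subunit of the BAF chromatin-remodelling complex.

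The mature sequences of both miR-9 arms are shown because the 2 arms of 1 hairpin have unrelated seeds and so read different targets. They come from RefSeq (GRCm38.p6), and the capitals mark the seed, bases 2 to 8 from the 5′ end.
miR-9-5p: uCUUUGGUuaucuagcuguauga
miR-9-3p: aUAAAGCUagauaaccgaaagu
The arms are 23 and 22 bases long. Neither seed occurs under any other name of that table, which holds 1679 mature names and is not complete. RefSeq sequences were matched for 2 of the 4 arms.

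Both miR-9 arms are encoded by 3 hairpins, which are printed because their arms are identical and only the loop and flanks differ. In these RefSeq sequences (GRCm38.p6, plus strand) the capitals mark the 5p arm and then the 3p arm.
Mir9-1, chr3:88215598-88215686: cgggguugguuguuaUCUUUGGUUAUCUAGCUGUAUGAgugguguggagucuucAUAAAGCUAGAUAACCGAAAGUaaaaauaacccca
Mir9-2, chr13:83738814-83738885: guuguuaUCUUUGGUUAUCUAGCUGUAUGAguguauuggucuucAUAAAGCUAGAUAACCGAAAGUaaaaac
Mir9-3, chr7:79505264-79505353: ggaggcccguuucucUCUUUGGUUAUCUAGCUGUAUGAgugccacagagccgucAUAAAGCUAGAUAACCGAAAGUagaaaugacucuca
The loop between the arms is 16 bases in Mir9-1 and Mir9-3 and 14 bases in Mir9-2. In structures predicted with RNAfold, 21 of the 23 bases of the 5p arm and 20 of the 22 bases of the 3p arm were paired in each of the 3 hairpins. Mir9-1 and Mir9-3 lie in introns of the long non-coding RNA genes Gm3764 and Mir9-3hg, and Mir9-2 lies in an exon of the long non-coding RNA gene C130071C03Rik (GENCODE M21). The miR-124 hairpins Mir124a-1 on chromosome 14 and Mir124a-2 on chromosome 3 lie in exons of their host genes Mir124a-1hg and Mir124-2hg, and Mir124a-3 on chromosome 2 lies in no other annotated gene. Because the mature arms of the copies are the same, a miR-9 count cannot be assigned to 1 of the 3 hairpins. The sources used here do not give how reads that match several loci were counted.

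Library totals, the reads assigned to miRNAs, were 4211365 to 5410804 in OldSAHA, 4642434 to 5249168 in OldVeh and 3585489 to 6808281 in YoungVeh. Together the 4 arms took 4.50% ± 0.319 of these reads (SD, n = 19). Raw counts per library were 126776 to 280197 for miR-9-5p, 18500 to 34857 for miR-124-3p, 2546 to 5404 for miR-9-3p and 110 to 244 for miR-124-5p. As markers of the tissue, 20 neuron-enriched miRNAs were all tested, and none was at 0 in any group; members of lists for oligodendrocytes, microglia, vessels, erythrocytes and choroid plexus were also counted in every group. In bulk tissue, fewer cells of a type and less RNA per cell cannot be told apart.

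The order of the 4 arms was the same in 19 of 19 libraries. miR-9-5p was the highest, at a mean of 38684 CPM (read counts relative to library size, after TMM scaling), and stood 5th of the 509 tested miRNAs. miR-124-3p averaged 5537 CPM and stood 33rd. miR-9-3p averaged 769 CPM and stood 89th. miR-124-5p averaged 36.0 CPM and stood 272nd. Neighbours in this order differed beyond their spread, since no library of a lower arm reached any library of the arm above it. By library, the place among the tested miRNAs was 4 to 9 for miR-9-5p, 30 to 34 for miR-124-3p and 81 to 100 for miR-9-3p. CPM are counts of reads, and mature miRNAs are of nearly one length, but ligation during library preparation can favour some sequences, so the order is one of reads.

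**Figure D1:**
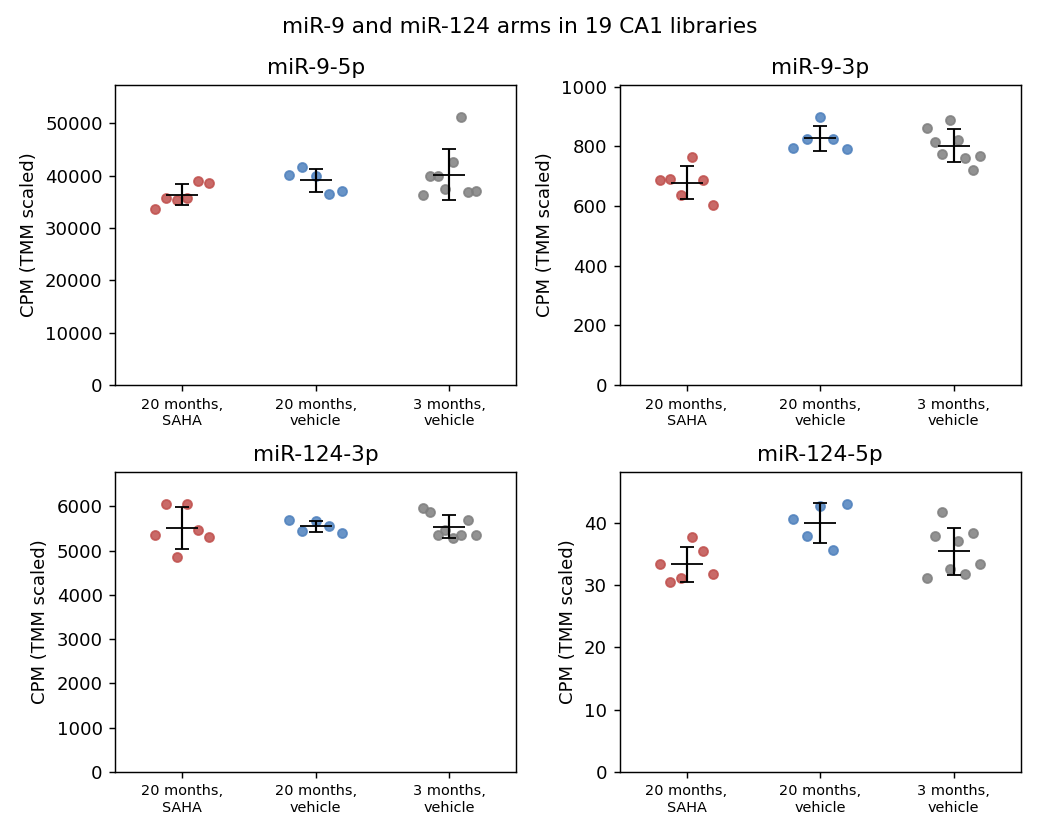
CPM after TMM scaling of the 4 arms in each library of OldSAHA (n = 6), OldVeh (n = 5) and YoungVeh (n = 8), with group means and SD. The miR-9-3p points of OldSAHA, 603 to 765 CPM, lie below all OldVeh points, 790.4 to 898 CPM, while the miR-124-3p points of the groups overlap.

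In aged CA1, SAHA went with a lower level of miR-9-3p, and the other 3 arms did not pass the test. miR-9-3p, the less abundant miR-9 arm, was lower in OldSAHA than in OldVeh, with a change of -17.9% and a 95% interval of -25.7% to -9.37%. Over all miRNAs, 22 of 509 passed in either direction (4.32%), 16 as lower (3.14%) and 6 as higher in OldSAHA (1.18%), beside 1 of the 4 arms here. The median log2 fold change was -0.19 over the 4 arms and -0.01 over the 509 miRNAs.

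miR-9-3p had 603, 687 and 765 CPM as the lowest, median and highest of the 6 OldSAHA libraries. In OldVeh it had 794, 826, 898, 825 and 790.4 CPM. Every OldSAHA library was below every OldVeh library, a separation that 25 of the 509 miRNAs showed in one direction or the other (4.91%). The means were 678 ± 55.0 CPM in OldSAHA and 827 ± 43.4 CPM in OldVeh (SD, n = 6 and n = 5), a log2 fold change of -0.28 ± 0.07 (SE) with an adjusted p of 0.0176 by edgeR's quasi-likelihood test with Benjamini-Hochberg adjustment. It was 12th of the 509 miRNAs by p. The call was lost in the fit on these 2 groups alone (adjusted p = 0.0540), without OldVeh library 3 (adjusted p = 0.0531) and without OldSAHA library 6 (adjusted p = 0.0524), all by edgeR; the log2 fold change over the alternatives was -0.32 to -0.25.

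miR-124-5p, the scarce arm of miR-124, had 30.6, 32.5 and 37.7 CPM as the lowest, median and highest of the OldSAHA libraries. In OldVeh it had 40.7, 38.0, 42.7, 35.6 and 43.0 CPM. Of the 6 OldSAHA libraries, 5 were below all OldVeh libraries, and the groups overlapped through OldSAHA library 4 at 37.7 CPM and OldVeh library 4 at 35.6 CPM. The log2 fold change was -0.26 ± 0.09 (SE), a change of -16.8% with a 95% interval of -27.1% to -4.99%, and edgeR's quasi-likelihood test gave an adjusted p of 0.0882. This value missed the threshold of 0.05. Its counts of 110 to 244 per library make it the least precisely counted of the 4 arms.

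miR-9-5p, the guide arm of miR-9, had 33682, 35693 and 38903 CPM as the lowest, median and highest in OldSAHA. In OldVeh it had 40179, 41689.9, 40000.5, 36577 and 37065 CPM. In OldSAHA 4 of 6 libraries were below all OldVeh libraries, and the groups overlapped. The log2 fold change was -0.11 ± 0.08 (SE), with an adjusted p of 0.518 by edgeR's quasi-likelihood test.

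miR-124-3p, the guide arm of miR-124, had 4846, 5415 and 6059 CPM as the lowest, median and highest in OldSAHA. In OldVeh it had 5687, 5443, 5671, 5552 and 5404 CPM. The OldSAHA libraries lay on both sides of the OldVeh libraries, 2 above all of them and 3 below. The log2 fold change was -0.01 ± 0.06 (SE), with an adjusted p of 0.927 by edgeR's quasi-likelihood test, and the 95% interval was -8.93% to 8.40%. The sign of this small value turned under 6 of the other settings, among them both other scalings.

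**Figure D2:**
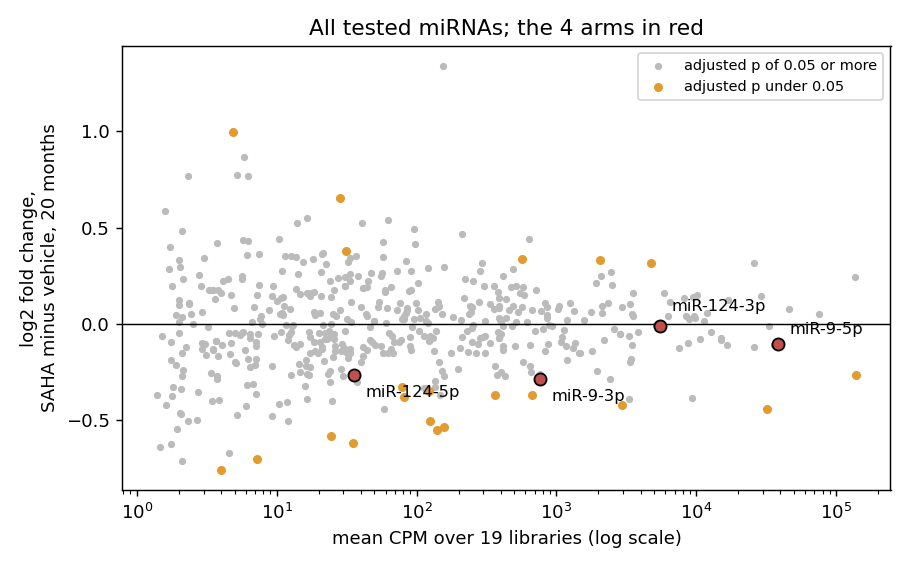
Log2 fold change of OldSAHA over OldVeh against mean CPM over 19 libraries (log axis) for the 509 tested miRNAs, with the 4 arms in red and the other miRNAs in orange where the edgeR adjusted p was under 0.05. miR-9-3p lies at -0.28, miR-124-5p at -0.26, miR-9-5p at -0.11 and miR-124-3p at -0.01, and the median of all tested miRNAs is -0.01.

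Set against young mice, the SAHA-treated aged mice again had less miR-9-3p, and no other arm passed. In this comparison 71 of the 509 miRNAs passed (13.9%), 44 of them as lower (8.64%) and 27 as higher in OldSAHA (5.3%), beside 1 of the 4 arms. miR-9-3p had 603, 687 and 765 CPM as lowest, median and highest in OldSAHA, against 721, 795 and 889 CPM in YoungVeh. Of the OldSAHA libraries, 5 of 6 were below all 8 YoungVeh libraries, and library 4 overlapped them; 18 of the 509 miRNAs had groups that did not overlap (3.54%). The means were 678 ± 55.0 CPM in OldSAHA and 802 ± 55.5 CPM in YoungVeh (SD, n = 6 and n = 8), and the log2 fold change was -0.24 ± 0.06 (SE), with an adjusted p of 0.0107 by edgeR's quasi-likelihood test. With scaling by library size only, the adjusted p by edgeR was 0.05002, just over the threshold. The same OldSAHA libraries enter this comparison and the one with OldVeh.

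The other arms gave smaller values in that comparison. miR-9-5p had 33682, 35693 and 38903 CPM as lowest, median and highest in OldSAHA, against 36354, 38728 and 51186 CPM in YoungVeh. Its log2 fold change was -0.15 ± 0.07 (SE), with an adjusted p of 0.142 by edgeR's quasi-likelihood test, so it missed the threshold. miR-124-5p had a log2 fold change of -0.09 ± 0.08 (SE; adjusted p = 0.456 by edgeR). miR-124-3p had 4846, 5415 and 6059 CPM in OldSAHA, against 5289, 5419 and 5961 CPM in YoungVeh as lowest, median and highest, and its log2 fold change of -0.01 ± 0.05 (SE; adjusted p = 0.944 by edgeR) turned sign under several settings.

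Between aged and young vehicle mice no arm passed the test. Over all miRNAs 11 of 509 passed (2.16%), 1 of them as higher in OldVeh (0.196%), and 80 (15.7%) had an unadjusted p under 0.05; of the 4 arms, 0 passed by edgeR's quasi-likelihood test, 0 had an unadjusted p under 0.05, and 0 passed by DESeq2 or limma-voom. The means of miR-124-3p were 5551 ± 129 CPM in OldVeh and 5545 ± 259.7 CPM in YoungVeh (SD, n = 5 and n = 8), a log2 fold change of 0.00 ± 0.06 (SE) with a 95% interval of -7.76% to 8.68%. For miR-9-3p they were 827 ± 43.4 CPM in OldVeh and 802 ± 55.5 CPM in YoungVeh, a log2 fold change of 0.04 ± 0.07 (SE). The groups overlapped for both arms.

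The 2 remaining arms also overlapped between the ages. miR-9-5p averaged 39102 ± 2190.4 CPM in OldVeh and 40185 ± 4915 CPM in YoungVeh (SD), and the YoungVeh spread rested on library 6 at 51186 CPM. Without that library the YoungVeh mean was 38613 ± 2264 CPM (SD, n = 7), and the log2 fold change changed sign, at -0.04 with all libraries and 0.02 without it. miR-124-5p had 40.7, 38.0, 42.7, 35.6 and 43.0 CPM in OldVeh, against 31.2, 35.2 and 41.7 CPM as lowest, median and highest in YoungVeh. It had the largest age difference of the 4 arms, a log2 fold change of 0.17 ± 0.09 (SE), with an adjusted p of 0.321 by edgeR's quasi-likelihood test. The 95% interval of the change, -0.425% to 27.5%, does not show that the ages are alike for this arm.

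**Figure D3:**
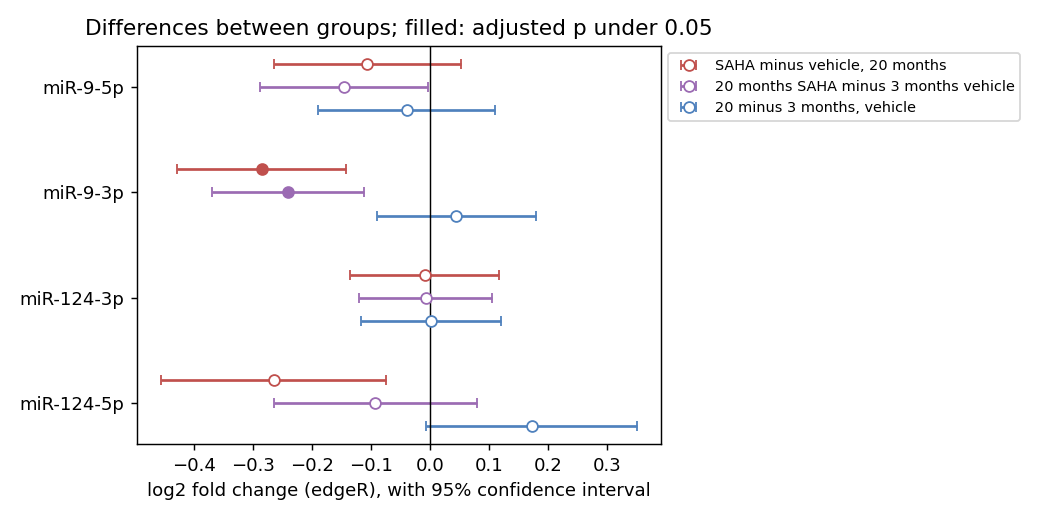
Log2 fold changes of the 4 arms with 95% intervals from edgeR in OldSAHA against OldVeh, OldSAHA against YoungVeh and OldVeh against YoungVeh. The intervals of miR-9-3p lie wholly below 0 in both comparisons with OldSAHA, and those of miR-124-3p hold 0 in all 3 comparisons. Those of miR-124-5p in OldSAHA against OldVeh and of miR-9-5p in OldSAHA against YoungVeh also lie wholly below 0. Neither of these 2 arms passed after adjustment over all miRNAs.

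The balance of the 2 arms of a miRNA name was followed as the ratio of their reads in each library. For miR-9, the 5p arm had 50.7 ± 6.58 reads for each read of the 3p arm (SD, n = 19, range 42.1 to 67.2). For miR-124 the 3p arm dominated, with 155.7 ± 18.8 reads for each read of the 5p arm (range 125.5 to 198). The minor arm therefore took 1.96% of miR-9 reads and 0.647% of miR-124 reads on average. Within 1 library the exact 95% binomial interval of the miR-9 minor arm spanned, for example, 1.42% to 1.51% in YoungVeh library 6, the lowest share; such intervals cover counting error only, since reads carry no molecular identifiers. Among 152 miRNA names with both arms tested (arm pairs), 80 had more 5p and 72 more 3p reads. The median size of their log2 ratio was 3.11, and miR-124 stood 25th and miR-9 37th by size. Pairs were formed by name, so the pair of miR-9 pools its 3 hairpins. Hairpins with a copy number in the name of only 1 arm, such as miR-128-1-5p with miR-128-3p, are not among the 152.

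With SAHA the miR-9 ratio moved towards 5p and the miR-124 ratio towards 3p, but neither passed after adjustment over the 152 arm pairs. In this comparison 21 of the 152 ratios passed (13.8%), with 0 of these 2 pairs among them. An unadjusted p under 0.05 by limma was found for 44 (28.9%). The miR-9 5p:3p ratio was 46.6, 53.6 and 64.1 as lowest, median and highest in OldSAHA, against 50.6, 50.5, 44.5, 44.3 and 46.9 in OldVeh. In OldSAHA 4 of 6 libraries were above all OldVeh libraries, and the groups overlapped; 11 of the 152 ratios had groups that did not (7.24%). The difference in log2 ratio was 0.18 ± 0.10 (SE), with an adjusted p of 0.245 by limma and an exact two-sided permutation p of 0.0541. The fall of miR-9-3p beside the smaller difference of miR-9-5p is thus not shown to be a change of the balance between the arms.

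The miR-124 3p:5p ratio was 154, 161 and 198 as lowest, median and highest in OldSAHA, against 139.8, 143, 133, 156.0 and 125.5 in OldVeh. In OldSAHA 4 of 6 libraries were above all OldVeh libraries, and library 4 of OldVeh overlapped the others. As log2 of 5p over 3p the difference was -0.25 ± 0.09 (SE), with an adjusted p of 0.0704 by limma. The exact two-sided permutation p was 0.00649, where the smallest this design allows is 0.00216; it is not adjusted and is 1 of 6 such tests. With arm pairs under a mean of 100 counts in either arm left out, the adjusted p by limma was 0.0429. Since miR-124-3p differed by -0.01 and miR-124-5p by -0.26 on the log2 scale, the ratio carries mainly the values of the 5p arm.

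With age, the log2 5p:3p ratio differed by -0.08 ± 0.09 (SE) for miR-9, with an adjusted p of 0.801 by limma and an exact permutation p of 0.495, and it was -0.02 without YoungVeh library 6. For miR-124 it differed by 0.17 ± 0.09 (SE), with an adjusted p of 0.424 by limma and an exact permutation p of 0.0785. Of the 152 ratios, 0 passed by limma in this comparison (0%), and 17 had an unadjusted p under 0.05 (11.2%). Between OldSAHA and YoungVeh 16 of 152 passed (10.5%), and 4 had groups that did not overlap (2.63%). The values were 0.10 ± 0.09 (SE; exact permutation p = 0.342) for miR-9 and -0.08 ± 0.08 (SE; exact permutation p = 0.397) for miR-124, and neither passed by limma. These small values moved with single libraries, the miR-9 value to 0.05 without OldSAHA library 6 and 0.16 without YoungVeh library 6, and the miR-124 value to -0.02 without OldSAHA library 2 and -0.12 without YoungVeh library 1. The miR-124 3p:5p means were 166 ± 16.3 in OldSAHA, 139.5 ± 11.5 in OldVeh and 158 ± 18.9 in YoungVeh (SD), with all 3 groups overlapping.

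**Figure D4:**
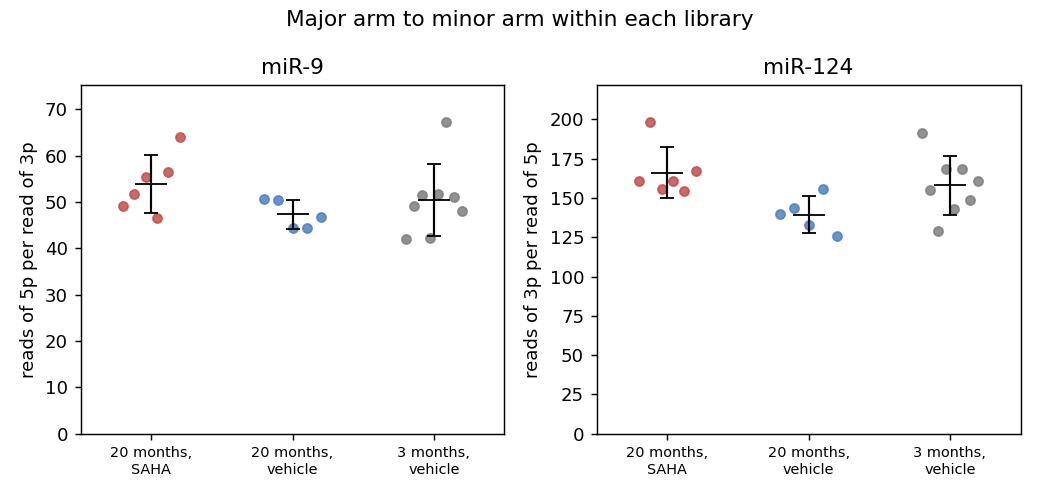
Reads of the major arm per read of the minor arm in each library, for miR-9 (5p over 3p) and miR-124 (3p over 5p), with group means and SD in OldSAHA (n = 6), OldVeh (n = 5) and YoungVeh (n = 8). YoungVeh library 6 has the highest miR-9 ratio, 67.2, and OldSAHA library 2 the highest miR-124 ratio, 198.

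Over the minor arms of all 152 arm pairs, which include miR-9-3p and miR-124-5p, the median log2 fold change of OldSAHA over OldVeh was -0.04. Of these minor arms, 83 of 152 were below 0, 7 passed as lower and 2 as higher. For the major arms the median was -0.01, with 77 of 152 below 0, 4 passing as lower and 3 as higher. Over all 509 miRNAs, 3.14% passed as lower and 1.18% as higher. In 75 of the 152 arm pairs the log2 fold change of the minor arm was below that of the major arm.

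The ratio of the 2 guide arms to each other ran from 5.89 to 9.58 over the 19 libraries. There were 6.63 ± 0.680 reads of miR-9-5p for each read of miR-124-3p in OldSAHA, 7.05 ± 0.394 in OldVeh and 7.28 ± 1.1 in YoungVeh (SD), and the groups overlapped. Within groups miR-124-3p had a SD of 0.0837 on the log2 CPM scale, with 10 of the 509 miRNAs lower (1.96%). For miR-9-3p the SD was 0.0997, for miR-9-5p 0.124 and for miR-124-5p 0.132, and the median over all tested miRNAs was 0.211. Among the 50 miRNAs nearest in level, 5 varied less than miR-124-3p, 8 less than miR-9-3p, 20 less than miR-9-5p and 9 less than miR-124-5p. All 4 arms thus varied less than the median of these sets. For miR-9-5p, 5th in level, nearly all of the 50 are lower in level, so that set is not matched to it.

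**Figure D5:**
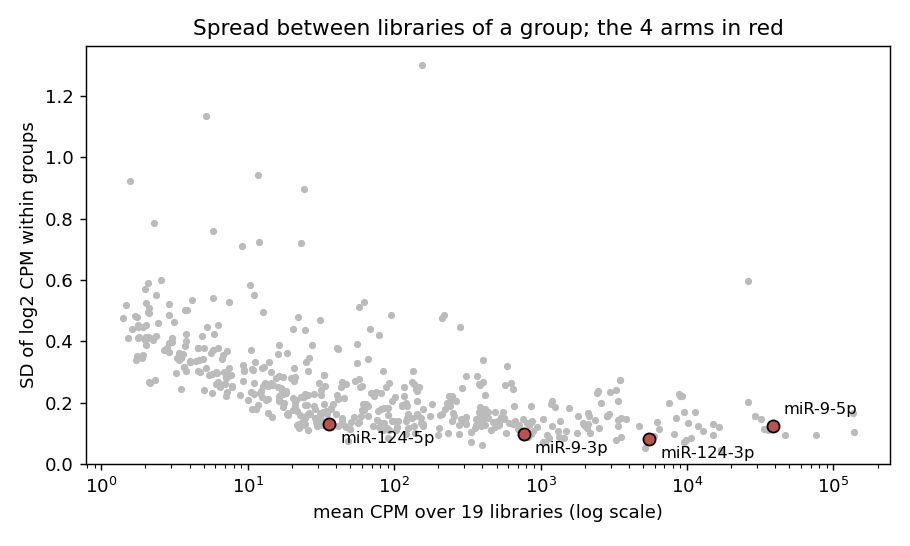
Within-group SD of log2 CPM against mean CPM (log axis) for the 509 tested miRNAs, with the 4 arms in red. The arms lie at 0.0837 to 0.132, under the median of 0.211 over all tested miRNAs.

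After the group means were taken out, none of the 6 correlations between the 4 arms over the 19 libraries passed the threshold. The highest of the 6 correlations was between miR-9-3p and miR-124-3p, with Pearson's r of 0.50 (permutation p = 0.0623, adjusted 0.374) and Spearman's rho of 0.51 (permutation p = 0.0504, adjusted 0.302). Without the 2 libraries farthest from the median of miR-9-3p, r was 0.35 (permutation p = 0.136). The 2 arms of miR-9 had r of -0.19 and those of miR-124 0.13, and the 2 guide arms had r of -0.21. With 19 libraries, a correlation that missed the threshold does not show that 2 arms move apart, and CPM of abundant miRNAs share 1 library total, which ties them to each other.

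The miRNAs whose log2 CPM ran most like each arm over all 19 libraries were named by Pearson's r, which here includes the differences between groups and carries no test. For miR-9-3p they were miR-153-5p (r = 0.90), miR-153-3p (r = 0.82) and miR-485-3p (r = 0.79). miR-153 is a brain-enriched miRNA, and miR-485 belongs to the imprinted Dlk1-Dio3 cluster. For miR-9-5p they were miR-128-1-5p (r = 0.83), miR-582-3p (r = 0.70) and miR-3059-5p (r = 0.69). For miR-124-3p they were miR-361-5p (r = 0.75), miR-7a-1-3p (r = 0.75) and miR-212-5p (r = 0.73), the last from a cluster with miR-132 that neuronal activity induces. For miR-124-5p they were miR-379-3p (r = 0.71) and miR-377-3p (r = 0.67), both of the Dlk1-Dio3 cluster, and miR-132-3p (r = 0.65).

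Other neuron-enriched miRNAs gave the surroundings of these values. Of 20 tested, 0 passed as higher and 2 as lower in OldSAHA against OldVeh, where 1.18% of all miRNAs passed as higher and 3.14% as lower, and the median log2 fold change was -0.06, with -0.01 over all miRNAs. The 2 were miR-128-3p, a brain miRNA that dampens neuronal excitability in mice (log2 fold change -0.44 ± 0.08, adjusted p = 0.00344 by edgeR), and miR-153-5p (-0.38 ± 0.11, adjusted p = 0.0368 by edgeR). miR-128-3p averaged 25447 CPM in OldSAHA and 34553 CPM in OldVeh. In OldVeh against YoungVeh 0 of the 20 passed by edgeR, beside 2.16% of all miRNAs. In OldSAHA against YoungVeh miR-488-3p passed as higher, at 0.23 ± 0.07 (SE; adjusted p = 0.0417 by edgeR), and miR-128-3p and miR-153-5p passed as lower, at -0.46 and -0.40; over all miRNAs 5.3% passed as higher and 8.64% as lower.

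Marker lists moved beside the miR-9-3p result as follows, and their part in it was not tested. The summed CPM of the 20 neuron-enriched miRNAs was 39112 to 44923 in OldSAHA, 46102 to 55535 in OldVeh and 42128 to 55944 in YoungVeh. miR-128-3p, at a mean of 31834 CPM, makes up most of that sum. Of the 20 log2 fold changes of OldSAHA over OldVeh, 12 were below 0 and 8 above 0. The summed CPM of the 6 microglial and myeloid miRNAs was 2985 to 5923 in OldSAHA and 3125 to 4074 in OldVeh. In YoungVeh it was 2696 to 3620.5, and miR-21-5p, at a mean of 2469 CPM over all libraries, makes up most of that sum. In OldSAHA against OldVeh 0 of 6 passed by edgeR, and all 6 log2 fold changes were above 0. In OldSAHA against YoungVeh, the other comparison in which miR-9-3p passed, 3 of the 6 passed as higher (5.3% of all miRNAs did), with a median log2 fold change of 0.56. They were miR-146a-5p, an NF-κB-induced brake on innate immune signalling (0.95, adjusted p = 0.000508 by edgeR), miR-155-5p, a pro-inflammatory miRNA of activated myeloid cells (1.68, adjusted p = 0.000776 by edgeR), and miR-142-5p, which is specific to blood-derived cells and microglia (0.49, adjusted p = 0.0165 by edgeR). Of these, miR-155-5p was scarce, at a mean of 9.82 CPM in OldSAHA and 3.10 CPM in YoungVeh. In OldVeh against YoungVeh 1 of the 6 passed as higher, miR-146a-5p at 0.80 (adjusted p = 0.00938 by edgeR). It was the only 1 of all 509 miRNAs that passed as higher with age (0.196%). For 3 oligodendrocyte miRNAs the sum was 3205 to 6954 CPM in OldSAHA, 3484 to 4857 CPM in OldVeh and 2814 to 4006 CPM in YoungVeh. That list had 4 members, and its miR-219 3p arm was not matched by name, so the sum leaves it out. The arm counted as miR-219-2-3p was tested, at a mean of 632 CPM. Most of the oligodendrocyte sum was miR-338-3p, at a mean of 3476 CPM over all libraries. OldSAHA library 1 had the highest sum of both the microglial and the oligodendrocyte list. Without OldSAHA library 1 and YoungVeh library 6 the counts of arms passing were the same in all 3 comparisons. The sums of 4 endothelial and mural, 4 erythrocyte and 5 choroid plexus miRNAs overlapped between OldSAHA and OldVeh, and 0 of their members passed by edgeR with SAHA. Most of each sum was 1 miRNA, in that order miR-143-3p, miR-486-5p and miR-204-5p, at means of 26075, 2845 and 2956 CPM.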

How the data were processed

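Small RNA of CA1 tissue was extracted with Tri reagent, treated with DNase and made into TruSeq libraries, per the labels' protocols. The authors deposited raw counts, 1 whole number per mature miRNA and library. The submitters' processing notes name HTSeq, STAR, cutadapt, CASAVA 1.8.2 and, as build, mm10; settings, the miRNA annotation release and the handling of multiply mapped reads are not given in the sources used here. The 4 HTSeq summary lines per file were all 0 and were left out, so unassigned reads are unknown.

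Of 1148 names, 255 had no count in any library, and filterByExpr (minimum count 10, minimum total 15) kept 509. After TMM scaling, the counts entered edgeR 4.0.16 (R 4.3.3; quasi-likelihood test, robust, all 3 groups, common coefficient of biological variation 0.152). miRNAs passed at an adjusted p (Benjamini-Hochberg, over all 509 miRNAs) under 0.05. The SE is the absolute log2 fold change divided by the square root of F. Arm ratios were log2((5p + 0.5)/(3p + 0.5)) of raw counts, fitted with limma 3.58.1 over 152 arm pairs formed by name, and exact permutation tests were run per ratio. Correlations used 100000 permutations within groups. DESeq2 1.42.0 and limma-voom were alternatives, with other scalings and filters, the 2 compared groups alone, the replicate number as a block and each library left out. The scripts were tested on simulated data. The miRNAs named are the 4 arms, the 3 most like each by Pearson's r, and list members that passed. In addition, miR-21-5p, miR-219-2-3p, miR-338-3p, miR-143-3p, miR-486-5p and miR-204-5p are named where the marker sums are described. The members, the lists and the tests were chosen with earlier results of these data known, and the Spearman and trimmed correlations were added after seeing the data.

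All 19 libraries were kept. Over the 53 pairs within groups r of log2 CPM was 0.987 to 0.997. Chi-square divided by its degrees of freedom was 27.6 to 333 for these pairs, so no library repeated another of its group. Libraries of different groups were not compared in this way. Replicate numbers showed no pairing of the libraries. Over 16 pairs with the same number, deviations correlated at -0.317 to 0.314, with 4 pairs over 0.1. The median r was 0.0168 for these pairs and -0.00417 for pairs with different numbers.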

Additional observations from a re-analysis of the deposited data

Results flagged for a closer look

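In 3 of the 18 sets of values examined (each arm and ratio in each group), 1 library stood apart from the rest of its group by Dixon's criterion, which chance meets in about 1 of 20 groups. YoungVeh library 6 had the highest miR-9-5p of its group, at 15.64 on the log2 CPM scale. The same library had the highest miR-9 log2 5p:3p ratio of its group, at 6.07, with the next at 5.70. OldSAHA library 2 had the lowest miR-124 log2 5p:3p ratio of its group, at -7.63, with the next at -7.38.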

How the results depend on the processing

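The fall of miR-9-3p kept its direction under all alternatives run. In OldSAHA against OldVeh its log2 fold change was -0.32 to -0.25 over 20 alternatives and it passed in 17; in OldSAHA against YoungVeh it was -0.28 to -0.20 over 23 and passed in 22. Arms passing numbered 0 with only the 2 groups compared (OldSAHA against OldVeh, -0.27) and 0 with library size only (OldSAHA against YoungVeh, -0.20); leaving out 1 library gave 0 to 1 in OldSAHA against OldVeh. Ratios passing there numbered 1 with arm pairs of 100 counts and 1 by unadjusted exact permutation test, both miR-124. The cause of these changes was not tested.

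Signs turned only where no call was made. miR-124-3p in OldSAHA against OldVeh was 0.000544 with DESeq2 size factors, 6.13e-05 with library size only, 0.00510 without the 3 most abundant other miRNAs, 0.000540 in DESeq2, 0.00588 in voom and 0.00509 with 2 groups. In OldSAHA against YoungVeh it was 0.0126, 0.0346, 0.0216, 0.0125, 0.00361 and 0.0226 under the same settings, and 0.00576 with no filter. In OldVeh against YoungVeh it was -0.00227 in voom. Leaving out 1 library gave -0.00938 to 0.0226 for age, -0.0380 to 0.0261 for OldSAHA against OldVeh and -0.0377 to 0.0264 for OldSAHA against YoungVeh; miR-9-5p with age ran from -0.0601 to 0.0182. Without OldSAHA library 1 and YoungVeh library 6, miR-124-3p with age was -0.00527 and miR-9-5p 0.0186. The correlation of miR-9-5p with miR-124-5p was 0.142 by Spearman and 0.249 trimmed; trimmed, miR-124-5p gave -0.221 with miR-9-3p and -0.163 with miR-124-3p.

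With the replicate number as a block, the pairing check being negative, miR-9-3p gave -0.26 (adjusted p = 0.0493 by edgeR) in OldSAHA against OldVeh and -0.28 (0.00956) in OldSAHA against YoungVeh; uncalled age values turned to -0.00825 for miR-124-3p and -0.0141 for miR-9-3p. All miRNAs passing then numbered 8 for age, 15 for OldSAHA against OldVeh and 58 for OldSAHA against YoungVeh. Arm ratios passing in the last comparison numbered 25.

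Over all miRNAs, calls for age (11) became 20 in DESeq2, 23 in voom, 19 with 2 groups and 18 without both named libraries. Calls for OldSAHA against OldVeh (22) became 39 in DESeq2, 46 in voom, 37 without both libraries, 13 without OldVeh library 1, 14 without OldVeh library 3 and 11 without OldSAHA library 6. Ratios called (21) became 12 with 2 groups, 11 without OldVeh library 1 and 13 without OldVeh library 3; against YoungVeh (16) they became 25 without OldSAHA library 1 and 32 without both, and for age (0) 1 without both. The miR-124-5p values rest on 110 to 244 counts per library.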
